A study of Drosophila melanogaster
Mus musculus with 4 samples.

Results

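The immunoglobulin kappa (Igk) locus of the mouse and its flanks were examined as 242 accessible sites, out of 69709 in the whole study, that start between 67 and 72 Mb of chromosome 6 (mm10). Sites were assigned to classes by start position alone. An upstream flank ran from 67 to 67.55 Mb and held 33 sites. The V range ran from 67.55 to 70.705 Mb and was divided at its midpoint, 69.1275 Mb, into a distal V class of 80 sites and a proximal V class of 51. The end with the J segments, the constant region and the enhancers, called the J-C-enhancer end here, ran from 70.705 to 70.76 Mb and held 10 sites, and a downstream flank of 68 sites ran on to 72 Mb. No mouse annotation was used, so single sites carry coordinates and no gene or segment names.

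Accessibility had been measured by ATAC-seq, in which the Tn5 transposase inserts sequencing adapters into exposed DNA. The libraries came from B220+CD43+ cells, a surface phenotype of early B cell precursors, sorted from the bone marrow of C57BL/6 mice at 8 weeks of age. The compared groups were Hdac3+/+ controls, called wild type here, and mice in which Hdac3 was deleted, called knockout here, with 2 libraries each. Hdac3 removes acetyl groups from histones as the enzyme of nuclear corepressor complexes. Every library of both genotypes held 5% Drosophila S2 cells, a fly line, added to 50000 sorted cells. The labels do not say what drives the deletion or in which cells it acts. Whether libraries of a genotype are separate mice is not stated either, and the p-values reflect only how far these libraries differ, which may be technical. Neither the loss of Hdac3 nor the markers of the sorted cells were checked here. In bulk libraries, fewer cells with an open site cannot be told apart from a less open site in each cell.

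The kappa locus encodes 1 of the antibody light chains as a long array of V segments, followed by a short cluster of J segments and a single constant region. Enhancers lie in the intron between J and C and downstream of C. In B cell development the heavy chain genes are joined first, at the pro-B stage, and most kappa rearrangement follows at the pre-B stage, when RAG recombinase joins a V to a J segment and the DNA between them is deleted or inverted. The series title puts the study's question as the need for Hdac3 deacetylase activity in V(D)J recombination, and the comparison here asks where along Igk accessibility differed with the deletion.

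The libraries held between 16132402 and 32988999 reads in all sites and between 47595 and 91556 reads in the interval. Values are the authors' reads per site normalized by library, in which 1 read was worth between 0.664 and 1.33. Library scaling held the median log2 fold change of all sites near 0 (it was -0.01), so a shift of the whole genome could not be seen. Whether reads of the S2 cells entered that scaling was not checked here. Wild-type replicate 2 stood apart in 1 respect, with 10 peaks below 50 Mb of chromosome Y against 0 in each other library. Log2 fold changes are differences, knockout minus wild type, on log2(normalized reads + 1). A site was called higher or lower where limma, fitted over all 69709 sites, gave a p under 0.05 after Benjamini-Hochberg (BH) adjustment. Each site of the interval overlapped peaks of at least 2 libraries, so some stand in the set through the peaks of 1 genotype alone.

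In knockout cells many V sites lost accessibility, while sites of the flanks were more often higher than lower. Of the 131 V sites, 54 were lower (41.2%), where 8.90% of all sites were lower. Peaks lay in both wild-type libraries and in no knockout library at 23 distal and 24 proximal V sites. These stand in the set through wild type alone, and many of the lower V sites are among them. The share of lower V sites and the V class means follow in part from that selection. Of the 131 V sites, 15 were higher (11.5%), a share close to the 11.7% of all sites. The median log2 fold change was -0.66 over V sites. In the flanks 5 of 101 were lower and 24 higher. At the J-C-enhancer end 0 of 10 sites were lower and 2 were higher, and with 10 sites neither count is far from the shares over all sites. In the J-C-enhancer end the median was 0.20, in the upstream flank 0.23 and in the downstream flank 0.14.

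**Figure D1:**
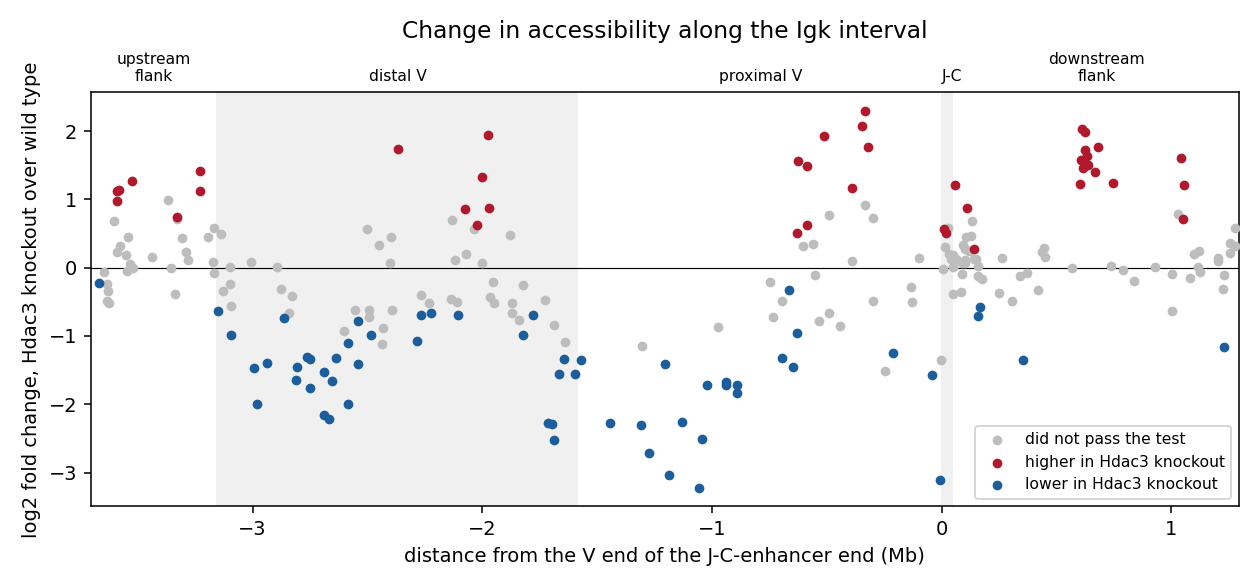
Log2 fold change (knockout over wild type, y axis) of each of the 242 sites against its distance in Mb from the V end of the J-C-enhancer end (x axis); coloured points passed limma's test, grey points did not, and shading marks the classes. Lower sites lie along much of the V range, interrupted by groups of higher sites near -2 Mb and between -0.6 and -0.3 Mb.

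The share of lower sites was 41.2% in distal and 41.2% in proximal V. The distal class had 33 lower and 6 higher sites of 80, with a median log2 fold change of -0.66. In the proximal class 21 were lower and 9 higher of 51, and the median was -0.78. The fold changes were spread more widely in the proximal class, with an SD over sites of 1.41 against 0.91 in the distal class, and ran from -3.22 to 2.29. Both knockout libraries lay below both wild-type libraries at 54 distal and 30 proximal sites, which is 84 of 131, against 30.5% of all sites. They lay above both at 26 V sites, against 30.1% of all sites. Leaving out knockout replicate 2 did not reduce the count of lower sites in the interval. Each fit without a library leaves 1 sample in its genotype, which is then assumed to vary like the other genotype. How far that design moves the distal and proximal counts was not tested. Single libraries moved these counts: without wild-type replicate 1, 11 distal and 11 proximal sites were lower, and without knockout replicate 1 the distal count was 15. Without wild-type replicate 2, which stood apart on chromosome Y, 24 distal and 16 proximal sites were lower.

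V sites were not very accessible to begin with. The median V site held 76.5 normalized reads in wild type and 60.5 in knockout cells, where the median of all sites was 122 and 129. Per base of site length, the median was 0.272 reads in wild type and 0.179 in knockout cells at V sites, 0.562 and 0.731 at the J-C-enhancer end, and 0.345 and 0.371 over all sites. Because sites of low level are less often called lower, falls at V sites were also read against sites of like level. Rises were not matched for level, and matching does not undo the selection of sites through wild-type peaks alone. In the middle range of V levels, between 47.7 and 132 normalized reads, 25 of 65 V sites were lower, against 6.03% of all sites in that range.

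The share of lower V sites was above that of all sites at every level of wild-type signal. Below 75 normalized reads 26.2% of 61 V sites were lower, against 2.38% of all sites at that level. From 75 to 150 reads it was 51.4% of 37, against 7.27%, and from 150 to 300 reads 61.9% of 21, against 12.3%. The 12 V sites at 300 reads or more had 6 lower and 3 higher, and 16.2% of all sites in that range were lower. In sums over sites, to which strong sites add most, normalized reads of knockout over wild type had a ratio of 0.775 in the distal and 0.930 in the proximal class, against 1.16 at the J-C-enhancer end, 1.11 upstream and 1.08 downstream. The proximal sums overlapped between genotypes, at 6651 and 5940 in wild type and 6126 and 5578 in knockout cells.

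Taken as 1 mean per library, both V classes were lower and the other classes higher. The distal V mean of log2 levels was 6.73 and 6.66 in the wild-type libraries, in order of replicate, and 5.98 and 6.15 in knockout. The proximal V mean was 6.59 and 6.39 in wild type and 5.93 and 5.76 in knockout cells. The genotypes did not overlap in either class.

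The classes were tested together with 1844 windows of 1 Mb from the rest of the genome, of which, with the classes, 8.65% were lower and 17.0% higher (limma). Distal V changed by -0.63 ± 0.13 (SE; limma, BH-adjusted p = 0.0140) and proximal V by -0.65 ± 0.18 (adjusted p = 0.0330). Ordered from the largest fall, proximal V took place 14 and distal V place 16 of these 1849 regions. The proximal call was lost without any 1 of the 4 libraries, in fits with that same limit (adjusted p between 0.0605 and 0.325), with the replicate block (adjusted p = 0.0974), and among sites with a mean of at least 50 reads, where the change was -0.34. The distal call was lost without wild-type replicate 1 (adjusted p = 0.0736) or knockout replicate 1 (0.0520), and with scaling to each library's filtered tags (0.0794), at changes between -0.54 and -0.64.

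Mean levels at the J-C-enhancer end were 7.71 and 7.68 in wild type and 7.87 and 7.94 in knockout cells, a rise of 0.21 ± 0.05 (SE; limma, BH-adjusted p = 0.0257). The upstream flank stood at 7.05 and 7.26 in wild type and 7.54 and 7.43 in knockout cells (0.34 ± 0.08, adjusted p = 0.0236), and the downstream flank at 7.17 and 7.34 against 7.62 and 7.56 (0.34 ± 0.07, adjusted p = 0.0145). In all 3 classes both knockout libraries lay above both wild-type libraries. These 3 calls were lost under scaling to each library's filtered tags (adjusted p = 0.998 each), although the changes themselves stayed at 0.32 upstream, 0.20 at the J-C-enhancer end and 0.32 downstream. Without knockout replicate 1 all 3 missed the threshold as well (adjusted p of 0.124, 0.0613 and 0.0819). The upstream call was also lost without wild-type replicate 1 (adjusted p = 0.0651), and the J-C-enhancer call without wild-type replicate 2 (0.0614) or knockout replicate 2 (0.0936).

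**Figure D2:**
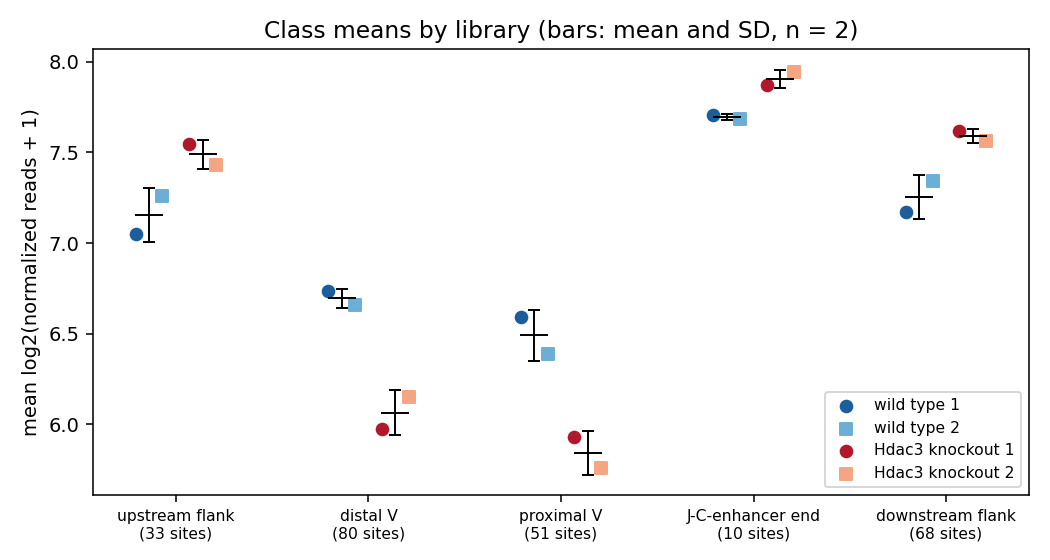
Mean log2(normalized reads + 1) of each class (y axis) in each library, with bars for the mean and SD of each genotype (n = 2). knockout libraries lie below wild type in both V classes, and above it at the J-C-enhancer end and in both flanks.

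Differences between classes within a library do not depend on its scaling, apart from the pseudocount. Distal V stood below the mean of all flank sites by -0.40 and -0.66 in the wild-type libraries, and by -1.62 and -1.37 in the knockout libraries. For proximal V these differences were -0.54 and -0.92 in wild type and -1.66 and -1.76 in knockout cells. Relative to the flanks, then, distal V was lower by -0.97 and proximal V by -0.98 in knockout cells, and genotypes did not overlap.

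For each of these differences the two-sided exact permutation p was 0.333, the smallest that 2 against 2 libraries can give (adjusted p = 0.667 over 4 differences). The J-C-enhancer end lay 0.58 and 0.37 above the flanks in wild type and 0.28 and 0.42 above them in knockout cells, so that genotypes overlapped (exact permutation p = 0.667). Proximal and distal V did not differ in their change beyond the spread of libraries: proximal minus distal changed by -0.02 (exact permutation p = 1), with a sign that turned under other settings.

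Along the locus the change was not even. In bins of 0.25 Mb the deepest falls lay between 69 and 69.75 Mb. Every lower site there had peaks in both wild-type libraries and in no knockout library. These sites stand in the set through wild type alone, so the depth of the fall follows in part from that selection. In the bin from 69.25 to 69.5 Mb log2 levels averaged 6.43 and 6.47 in wild type and 4.12 and 4.56 in knockout cells, with 3 of 4 sites lower. The next bin, to 69.75 Mb, had 6 of 7 sites lower, at 6.53 and 6.46 in wild type and 4.39 and 4.31 in knockout cells.

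Other bins of the V range went against this. From 68.5 to 68.75 Mb the mean level was 6.83 and 6.84 in wild type and 7.20 and 7.22 in knockout cells, with 5 sites higher and 1 lower of 14. From 70.25 to 70.5 Mb, 4 sites were higher and 1 lower of 11. The V range was also cut in 3 equal lengths. The first, J-distant length changed by -0.72 (limma, BH-adjusted p = 0.0168) and the middle by -0.88 (adjusted p = 0.00767). The length next to J changed by -0.32 (adjusted p = 0.147). In this order, 25 of 53, 16 of 36 and 13 of 42 sites were lower, and 1, 5 and 9 were higher. Over all sites 8.90% were lower and 11.7% higher.

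**Figure D3:**
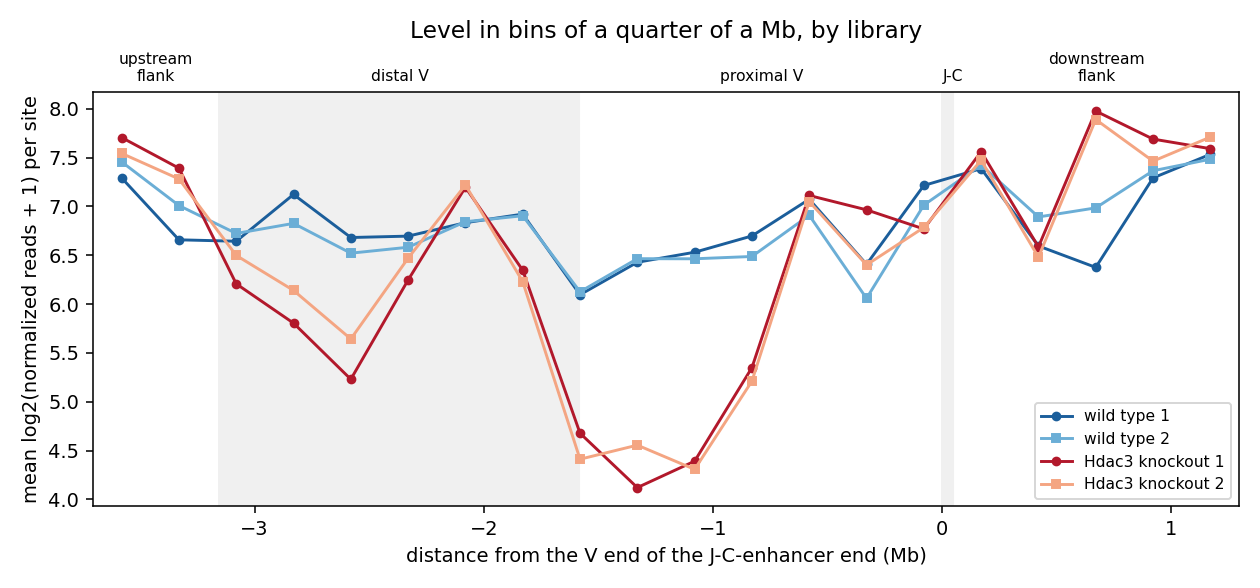
Mean log2(normalized reads + 1) per site in bins of 0.25 Mb (y axis) for each of the 4 libraries, against distance in Mb from the V end of the J-C-enhancer end (x axis). In bins that lie wholly within the V range, wild-type libraries keep between 6.06 and 7.12. Both knockout libraries drop as low as 4.12 and 4.31 in the middle and return to wild-type levels near -0.6 Mb.

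Called sites of like direction lay together in stretches, which were outlined after the values were seen and are given as a description, without a test. The longest, chr6:68880641-70059375, spans 1179 kb from the end of the distal class into the proximal class. It held 34 sites, of which 25 were lower, and by construction none that was higher. Log2 levels averaged 6.77 ± 0.04 in wild type and 5.23 ± 0.08 in knockout cells (SD, n = 2 each), and the median fold change was -1.51 (log2). The median site of the stretch held 90.7 and 82.8 normalized reads in wild type and 31.5 and 27.9 in knockout cells. At 32 of the 34 sites both knockout libraries were below both wild-type libraries, against 30.5% of all sites. A high count follows in part from drawing the stretch around lower sites. Most of its lower sites also had peaks in both wild-type libraries and in no knockout library, and stand in the set through wild type alone.

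A second lower stretch, chr6:67555324-68220123, opens the V range at its far end. There 21 of 36 sites were lower, with a median log2 fold change of -0.95. Its mean level was 6.77 and 6.64 in wild type and 5.56 and 5.94 in knockout cells. The knockout libraries differed from each other here, with replicate 2 above replicate 1 at 27 of 36 sites. In the longest stretch that was so at 13 of 34.

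Between and beside these stretches lay sites that rose. Around chr6:68631687-68736604, 5 of 8 sites were higher, with a median of 0.74. From chr6:70079344-70386717, 8 of 17 were higher, with a median of 0.78 and mean levels of 6.43 and 6.24 in wild type and 7.22 and 6.98 in knockout cells. Nearest to J, in chr6:70493876-70698415, 3 of 6 sites were lower again. Thus 13 of the 15 higher V sites belonged to these higher stretches, and the others were chr6:68339848-68340198 and chr6:70073794-70074272.

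The change of direction could be abrupt. The site chr6:70073794-70074272 held 381 and 336 normalized reads in wild type and 502 and 514 in knockout cells. Its neighbour chr6:70074532-70074870, 259 bp away, held 154 and 143 in wild type and 77.9 and 74.4 in knockout cells. The first was higher (log2 fold change 0.51, limma, BH-adjusted p = 0.0298) and the second lower (-0.95, adjusted p = 0.0171), without overlap of genotypes at either. This pair was chosen after its values were seen.

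Among distal V sites at or above the interval's median level, the largest fall was at chr6:67954435-67954986. That median was 95.2 normalized reads, below the 125 of all sites. It held 396 and 255 normalized reads in the wild-type libraries and 64.9 and 133 in the knockout libraries (log2 fold change -1.76 ± 0.30 SE, limma, BH-adjusted p = 0.00102). The libraries of each genotype differed widely in level, with wild-type replicate 1 and knockout replicate 2 the higher of their pairs. The site chr6:67711573-67711905 went from 193 and 140 reads in wild type to 55.9 and 61.1 in knockout cells, and chr6:68164176-68164560 from 211 and 159 to 76.9 and 61.1. At chr6:68066124-68066504 the values were 147 and 135 in wild type and 47.0 and 66.4 in knockout cells. All 4 lie in the lower stretch at the far end of the V range.

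Distal V sites that rose were fewer. The largest rise among those at or above the interval's median level, at chr6:68339848-68340198, went from 65.7 and 62.4 reads in wild type to 250 and 186 in knockout cells (1.74 ± 0.26, limma, BH-adjusted p = 0.000469). It stood alone, with lower sites as the nearest called sites on both sides. The other 3 named rises belonged to the stretch near 68.7 Mb: chr6:68704253-68704811 went from 139 and 133 reads to 367 and 319, chr6:68736151-68736604 from 113 and 142 to 240 and 225, and chr6:68631687-68632277 from 349 and 330 to 610 and 623. The most accessible distal V site in wild type, chr6:68437218-68438033, held 642 and 577 reads there and 330 and 433 in knockout cells, a fall of 0.69 on the log2 scale (limma, BH-adjusted p = 0.00747). Without knockout replicate 1 its adjusted p was 0.0691.

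In proximal V the largest fall by this rule was deeper. The site chr6:69432238-69432725 held 162 and 171 reads in wild type and 15.0 and 39.9 in knockout cells (log2 fold change -2.71 ± 0.40 SE, limma, BH-adjusted p = 0.000401). It was followed by chr6:69681217-69681698, with 177 and 151 reads in wild type and 49.95 and 47.8 in knockout cells. Further toward J, chr6:70010711-70011098 went from 219 and 221 reads to 98.9 and 77.1, and chr6:70493876-70494312 from 173 and 159 to 55.9 and 86.4. The rule by which these sites were named admits only genotypes that do not overlap. The sites chr6:69432238-69432725 and chr6:69681217-69681698 also stand in the set through wild-type peaks alone.

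Among the rises in proximal V, the largest was smaller on the log2 scale than the largest fall. At chr6:70371792-70372156 the level was 75.7 and 54.5 reads in wild type and 373 and 272 in knockout cells (2.29 ± 0.26, limma, BH-adjusted p = 6.69e-05). Its neighbour chr6:70356304-70356659 went from 98.3 and 91.9 reads to 524 and 314 (2.08 ± 0.24, adjusted p = 9.11e-05). At chr6:70386506-70386717 the change was from 65.1 and 53.3 reads to 231 and 177. These sites lie close together, and of the knockout libraries replicate 1 was the higher at each. The fourth, chr6:70118867-70119160, went from 47.2 and 60.1 reads to 139 and 163. The strongest proximal V site in wild type, chr6:70040324-70041341, held 1144 and 1022 reads in wild type and 823 and 899 in knockout cells (-0.33 ± 0.11, limma, BH-adjusted p = 0.0487), a call that was lost without wild-type replicate 1 (adjusted p = 0.364) or knockout replicate 1 (0.201).

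Falls of more than 4-fold were found at 13 V sites, 5 distal and 8 proximal, which is 9.92% of V sites and 3.40% of the 382 such sites in the genome, where 0.548% of all sites fell by that much. Most were weak sites that the rule for named sites leaves out. All 13 had peaks in both wild-type libraries and in no knockout library. They stand in the set through wild type alone, so their share follows in part from that selection. At chr6:69517791-69518148, chosen after its values were seen, there were 107 and 106 normalized reads in wild type and 8.99 and 15.9 in knockout cells, from 161, 93, 9 and 12 raw reads (log2 fold change -3.04 ± 0.44, limma, BH-adjusted p = 0.000355). At chr6:70698229-70698415, the last called V site before the J-C-enhancer end and also chosen afterwards, 52 and 36 raw reads in wild type stood against 3 and 3 in knockout cells. The genotypes were far apart at both, but raw counts this low leave the size of the fold imprecise.

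The J-C-enhancer end held some of the strongest sites of the locus. Its highest, chr6:70735189-70736206, had 972 and 846 normalized reads in wild type and 996 and 1092 in knockout cells (0.20 ± 0.11, limma, BH-adjusted p = 0.240). The site chr6:70743745-70744697 had 843 and 660 in wild type and 775 and 849 in knockout cells, and chr6:70709235-70709966 had 780 and 748 against 648 and 881. At the first of these both knockout libraries were the higher ones, and at the other two the genotypes overlapped.

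Both higher sites of this end were of middle strength. At chr6:70714265-70714616 there were 279 and 314 reads in wild type and 498 and 389 in knockout cells (0.57 ± 0.18, limma, BH-adjusted p = 0.0305). At chr6:70725643-70726133 there were 383 and 306 in wild type and 465 and 513 in knockout cells (0.51 ± 0.17, adjusted p = 0.0392). Each missed the threshold in at least 2 of the 4 fits that left out a library: the first without wild-type replicate 1 (adjusted p = 0.156) or knockout replicate 1 (0.249), and the second without wild-type replicate 2 (0.273), knockout replicate 1 (0.0677) or knockout replicate 2 (0.144). The authors' deposited table called 0 of the 10 sites at this end.

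The site chr6:70730889-70731187, with 117 and 125 reads in wild type and 164 and 201 in knockout cells, had a change of the same size that did not pass the test (0.58 ± 0.24, limma, BH-adjusted p = 0.0933). The remaining 4 sites, chr6:70718868-70719042, chr6:70752537-70752743, chr6:70753984-70754191 and chr6:70754835-70755108, held between 43.2 and 98.3 reads in every library and had log2 fold changes between -0.38 and 0.31 that did not pass the test. Of the 10 sites, 4 lay above and 1 below wild type without overlap of libraries, against 30.1% and 30.5% of all sites. Counts this small cannot be told from those shares.

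**Figure D4:**
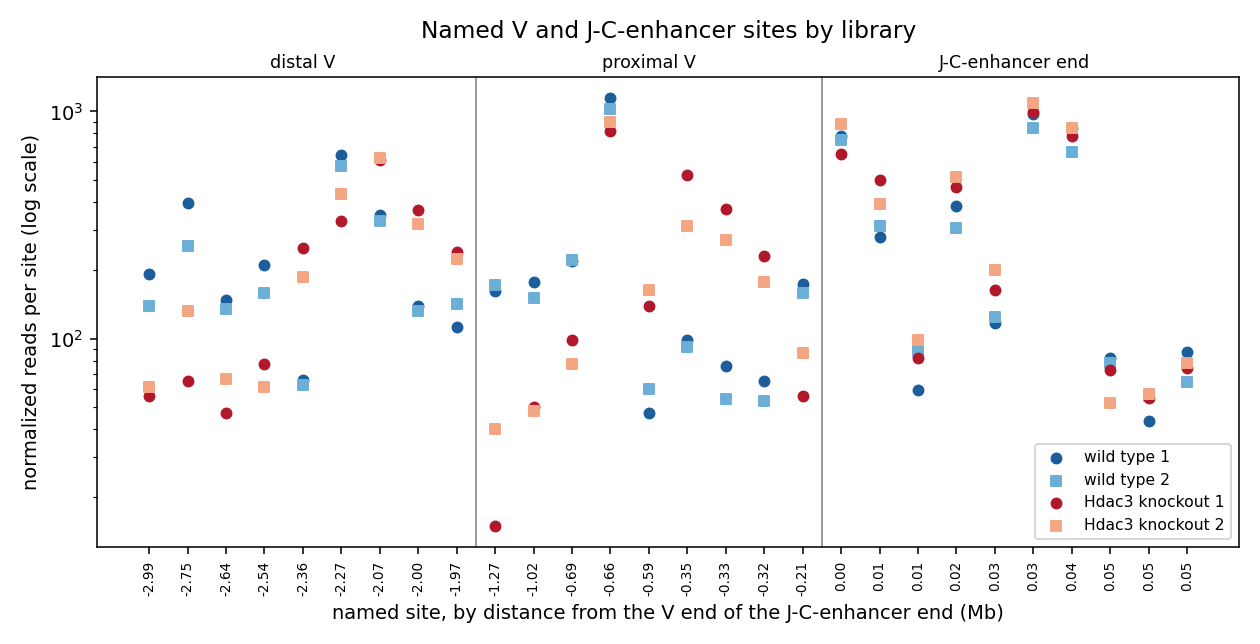
Normalized reads (log axis) in each of the 4 libraries at the named V sites and at all 10 sites of the J-C-enhancer end, ordered by position and marked by distance in Mb from the V end of that end. The V sites were named for a large change without overlap of genotypes or for the highest wild-type level, and the J-C-enhancer sites were not selected, so the panels do not compare the classes.

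Peaks, called by the authors in each library by itself, were fewer over V in knockout cells. They rest on the same libraries as the site values and are not separate evidence. A peak overlapped 79 and 76 of the 80 distal V sites in wild type and 40 and 56 in knockout cells. For the 51 proximal V sites the numbers were 49 and 46 in wild type and 26 and 24 in knockout cells. Peaks were present in both wild-type libraries and in no knockout library at 23 distal (28.8%) and 24 proximal V sites (47.1%), against 8.84% of all sites. Such sites stand in the set through their wild-type peaks alone, so the lower overlap in knockout cells there follows from that selection. Peaks in both knockout libraries and in no wild-type library were seen at 3 V sites, where 4.35% of all sites had them. Total peak numbers ranged from 62140 to 77919 and were highest in wild-type replicate 1, the deepest library.

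Outside the V range peaks were counted in the same way. Of the 10 sites at the J-C-enhancer end, 10 and 10 had a peak in wild type and 7 and 8 in knockout cells, and 2 had one in both wild-type libraries and in no knockout library (against 8.84% of all sites). Over all 69709 sites a peak was present at 64449 and 60470 in wild type and at 56112 and 60026 in knockout cells. In the downstream flank 58 and 59 of 68 sites had a peak in wild type and 62 and 62 in knockout cells, and in the upstream flank 31 and 29 of 33 against 31 and 31.

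The flanks held their own pattern of rises. Downstream, 17 of 68 sites were higher, where 11.7% of all sites were, and 4 lower. A stretch at chr6:71307561-71760353, outlined after the values were seen, held 14 of the 17, with a median log2 fold change of 1.23 over 21 sites. Its mean level was 6.55 and 6.99 in wild type and 7.82 and 7.71 in knockout cells. The wild-type libraries differed here, with replicate 2 above replicate 1 at 16 of 21 sites.

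Within it chr6:71339133-71339741 went from 86.3 and 163 reads in wild type to 413 and 336 in knockout cells (1.64 ± 0.26, limma, BH-adjusted p = 0.000653). The site chr6:71341197-71341532 went from 39.8 and 80.5 reads to 186 and 141, chr6:71322087-71322873 from 42.5 and 86.2 to 162 and 174, and chr6:71452680-71453166 from 51.1 and 87.4 to 148 and 170. Amid these stood the strongest downstream site, chr6:71439868-71441496, with 3416 and 3512 reads in wild type and 3521 and 3551 in knockout cells (0.03 ± 0.06, adjusted p = 0.780).

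Lower downstream sites were chr6:71934117-71934617, from 293 and 237 reads in wild type to 90.9 and 150 in knockout cells (log2 fold change -1.17), chr6:70871209-70872504 (-0.58), chr6:70865448-70865884 (-0.71) and the weaker chr6:71060148-71060438 (-1.35), named because the class had only 4. Without knockout replicate 1 their count was 1, and without wild-type replicate 1 or 2 it was 2.

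Upstream, 7 of 33 sites were higher (21.2%) and 1 was lower. The largest rise, at chr6:67476360-67476857, was from 131 and 214 reads in wild type to 473 and 432 in knockout cells (1.42 ± 0.22, limma, BH-adjusted p = 0.000538). This site lies in the last part of the flank before the V range, and the first lower V sites follow within the next bin. The other named rises, chr6:67181511-67182022, chr6:67115455-67115921 and chr6:67124164-67124438, changed by 1.27, 1.13 and 1.14. The single lower site, chr6:67036448-67037748, was also the strongest of the interval in wild type, with 3523 and 3598 reads there and 2842 and 3280 in knockout cells (-0.22 ± 0.07, adjusted p = 0.0365), and its call was lost without wild-type replicate 1, wild-type replicate 2 or knockout replicate 1 (adjusted p of 0.0949, 0.131 and 0.268). The count of higher sites was 4 without wild-type replicate 1.

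The interval held 15 sites of at least 1000 bp, 13 of them in the flanks, 1 in proximal V and 1 at the J-C-enhancer end. Their log2 fold changes ran from -0.58 to 0.47 with a median of 0.02. Lower were 3 of them, described above, where 15.8% of all sites of that width were lower, and the 1 that was higher was chr6:70844032-70845177 (0.27), where 2.80% were. With 1 site in the V range, the change of broad V sites cannot be judged.

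The authors ran their own differential test on the same libraries. In the authors' deposited table, at a false discovery rate under 0.05, 68 sites of the interval were lower and 45 higher, against 9.80% lower and 15.3% higher over all sites. By class, the authors' deposited table had 40 lower and 7 higher sites in distal V and 25 lower and 11 higher in proximal V. Of the 100 sites called here, 93 were also called in the authors' deposited table, and 0 in the opposite direction.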

How the data were processed

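ATAC-seq libraries of 2 wild-type and 2 knockout samples were used. Tools listed in the submitters' processing notes are Bowtie2 (2.2.4), SAMtools, edgeR, DiffBind (1.10.2) and MACS2 (2.0.10), and builds are mm10 and dm3. Per the file headers, the authors called peaks per library with MACS2 at a q cutoff of 0.001, and the deposited peak lists give pileup signal, fold enrichment and −log10 p and q. The read files' names carry q10, read here as a mapping quality minimum of 10. The sources used here do not give the treatment of reads that match several near-identical V segments, and V sites may be undercounted or share reads. The deposited site table gives normalized signal per site and library, the authors' log2 fold and their p-value and false discovery rate.

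Dividing by each library's step gave whole reads at 100% of values within 0.001 reads. As the values were deposited normalized, limma 3.58.1 (R 4.3.3, with a mean-variance trend) was run on log2(value + 1) over all sites, without a filter, in place of a count test, and Benjamini-Hochberg adjustment covered all sites. The edgeR 4.0.16 test on the recovered reads called 8544 sites higher and 6074 lower. DESeq2 1.42.0 was an alternative. Class means were fitted with windows of 1 Mb of at least 8 sites. Differences between classes were tested by exact permutation over libraries. Tests were checked on simulated data.

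Classes, sites and lists were chosen with earlier results of these data known. Named sites were, per class, up to 4 called sites of largest change in each direction with genotypes that do not overlap and a mean at or above the interval's median (95.2 normalized reads), the strongest wild-type site, and all sites of the J-C-enhancer end. Replicate numbers come from sample titles and no label ties them to a shared source. The authors' column letters group the libraries otherwise. Wild-type replicate 1 and knockout replicate 2 carry A, and the other libraries carry B. What the letters stand for is not stated. PCR duplicates and missing molecular identifiers mean that counts are not independent molecules.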

Additional observations from a re-analysis of the deposited data

How the results depend on the processing

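Over the alternative settings 0 sites of the interval were called in opposite directions. Sites called lower in the interval numbered 59, and 57 with edgeR, 43 with DESeq2, 42 among sites with a mean of at least 50 reads and 55 with the replicate block. Scaling to the tags left after filtering, and the crossed replicate block, were chosen after seeing the data. For the 41 named sites, 479 of 533 alternative values kept direction and call, 42 lost the call and 12 changed sign. The cause of these changes was not tested.

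Lower sites in the upstream flank numbered 1, and 0 with edgeR, DESeq2, scaling to library totals, loess or scaling to tags, and 2 with the crossed block. Higher sites at the J-C-enhancer end numbered 1 with DESeq2 and 0 scaled to tags. Scaled to tags, 3 distal V sites were higher and 2 downstream sites lower. With the V range in 3 lengths, 1 of 53 sites was higher in the first and 13 of 42 were lower in the last. The mean of the last changed by -0.32. The proximal V mean changed by -0.34 (limma, BH-adjusted p = 0.129) among sites with a mean of at least 50 reads and by -0.65 (adjusted p = 0.0974) with the replicate block. As medians over sites, 4 classes missed the threshold, with changes of 0.23 upstream, -0.48 in distal V, -0.62 in proximal V and 0.27 downstream. Scaled to tags, the changes of 0.32 upstream, -0.64 in distal V, 0.20 at the J-C-enhancer end and 0.32 downstream missed it. Proximal minus distal V changed sign to 0.027 with a pseudocount of 8 and 0.088 with a mean of at least 50 reads, and ran from -0.19 to 0.16 without 1 library.

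Without 1 library, lower sites ran from 0 to 1 upstream, 11 to 33 in distal V, 11 to 22 in proximal V and 1 to 4 downstream, and higher sites from 4 to 7 upstream and 0 to 1 at the J-C-enhancer end. The mean changes ran from 0.23 to 0.44 upstream, -0.72 to -0.54 in distal V, -0.75 to -0.55 in proximal V, 0.18 to 0.25 at the J-C-enhancer end and 0.25 to 0.42 downstream. Sign changes at single sites were near 0: chr6:70709235-70709966 gave 0.0063 with edgeR, 0.0011 with DESeq2, 0.015 scaled to totals and 0.055 with loess, and ran from -0.24 to 0.21 without 1 library. The site chr6:70754835-70755108 gave -0.0039 with edgeR, -0.0055 with DESeq2, -0.072 with loess and ran from -0.20 to 0.23 without 1 library, and chr6:70743745-70744697 ran from -0.055 to 0.30.

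The replicate numbers did not pair the samples (correlation of same-numbered deviations -0.10 over all sites), and the replicate block moved the count of called sites to 8111 higher and 6106 lower from 8133 and 6202. With the numbers crossed, which is the pairing by the authors' column letters, 10588 sites were higher and 8817 lower. In the interval 70 sites were then lower and 43 higher. Counts of reads limit weak sites: V sites held between 11035 and 27612 reads in all per library, and intervals of single counts cover counting error only.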
